A study of Mus musculus with 8 samples.

Results

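The genes of the proteasome, the particle that breaks down ubiquitin-tagged proteins, were examined in microglia of mice with conditional *Smad2* and *Smad3* deletion. Members were the protein-coding genes of the count matrix whose symbol starts with Psma, Psmb, Psmc, Psmd, Psme, Psmf or Psmg followed by a number. 50 genes met this rule, and 49 of them passed a minimum of 10 counts in 4 or more of the 8 libraries, out of 20153 tested and 55573 listed genes. All 49 reached 10 counts in each of the 8 libraries, so none entered through 1 group only. The gene left out, *Psmb11*, which encodes the beta subunit of the thymus-specific proteasome, had 0 counts in every library. *Psma8*, which encodes the alpha subunit of the testis proteasome, was the lowest gene inside the limit, with at least 56 counts. *Psmc3ip* carries the letters of the rule but encodes a factor of meiotic recombination. It is counted among the 49 members below and told apart where roles are described.

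The libraries were made from microglia, the resident macrophages of the brain, of Smad2/3fl/fl;Cx3cr1Cre mutant mice (n = 4) and control mice (n = 4). All were taken at postnatal day 60, the cells were sorted, and each mouse gave 1 library. SMAD2 and SMAD3 relay TGFβ receptor signals to the nucleus, and the mutants carry floxed alleles of both together with a Cre recombinase driven by the *Cx3cr1* locus, which is active in microglia and in related macrophages. The labels name the controls WT and littermates, while according to the Methods control animals usually had Cre plus a floxed allele, so whether Cre was shared by both groups is not settled by the sources used here. The deposited counts were scaled to the TMM-adjusted library size as CPM, the counts of a gene per 1000000 counts, and mutants were compared with controls by edgeR's quasi-likelihood test with Benjamini-Hochberg adjustment over all tested genes. In this test a gene was called at an adjusted p under 0.05, and log2 fold changes are mutant over control.

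Library totals ranged from 35639502 to 41946479 counts. *Smad3* was at 39.5, 56.9, 49.02 and 49.2 CPM in the 4 control libraries and 15.1, 9.61, 35.1 and 17.5 CPM in the 4 mutant libraries, with a log2 fold change of -1.33 (SE 0.36, adjusted p = 0.0429) by edgeR's test, a call lost when any mouse but mutant 3 was left out (adjusted p up to 0.110). The call of *Smad3* was also lost with a trend with transcript length taken out of each library (log2 fold change -0.94, adjusted p = 0.103 by edgeR's test). DESeq2 gave *Smad3* an adjusted p of 0.00428. *Smad2* was not called, at 74.6 ± 13.8 CPM in controls and 58.8 ± 14.96 CPM in mutants (mean ± SD, n = 4), and gene totals also count reads from exons outside a deleted part. *Xist*, which is transcribed from the inactive X chromosome, was at 99.5 to 183 CPM in controls and at 0.0276 to 0.562 CPM in mutants, so sex and genotype cannot be told apart in these libraries. *Psmd10* is the 1 member on the X chromosome. Of 8 microglia markers 7 were lower in mutants, with a summed level of 29574 to 44731 CPM in controls and 5673 to 7943 CPM in mutants. Of 7 markers of border-associated macrophages 5 were higher, with a summed level of 52.8 to 98.98 CPM in controls and 1630.0 to 2534 CPM in mutants. T and NK cell markers (3 of 8 higher) summed to 17.9 to 49.96 CPM in controls and 70.1 to 177 CPM in mutants. Monocyte and dendritic cell markers (1 of 8 lower) summed to 1915 to 3068 CPM in controls and 110.3 to 264 CPM in mutants. B cell markers (1 of 6 lower) summed to 476 to 760.1 CPM in controls and 79.6 to 122 CPM in mutants. Astrocyte markers (1 of 8 lower) summed to 1456 to 2506 CPM in controls and 388 to 1367 CPM in mutants. In the monocyte and dendritic cell, B cell and astrocyte lists only 1 gene each was called. Such a sum can rest mostly on 1 gene, so it need not follow the number of those cells. None of the markers of neurons (8 tested), oligodendrocytes (8), neutrophils (6) or endothelial cells (5 tested of 7, with *Tek* at 3 counts or fewer in every library) was called, and their summed levels overlapped between the groups. Fewer cells of a type and less RNA per cell cannot be told apart in bulk RNA, and the part of these cell types in the proteasome results was not tested.

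The proteasome is built from a 20S core and a 19S regulatory particle. The core is a barrel of alpha rings, which gate the entrance, and beta rings, which hold the active sites. The 19S particle has a base of ATPases that unfold the substrate and a lid that removes ubiquitin. In immune cells and after exposure to interferon the 3 catalytic beta subunits, encoded by *Psmb5*, *Psmb6* and *Psmb7*, can be replaced by those encoded by *Psmb8*, *Psmb9* and *Psmb10*, which gives the immunoproteasome and changes the peptides available for MHC class I. Microglia, as macrophages, express both forms. Separate activators can take the place of the 19S particle, among them PA28 alpha and beta (*Psme1* and *Psme2*), the nuclear PA28 gamma (*Psme3*) and PA200 (*Psme4*). Dedicated chaperones assemble the core (*Psmg1* to *Psmg4*) and the base (*Psmd5*, *Psmd9* and *Psmd10*).

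The members lie on 16 chromosomes, with at most 10 on one of them, chromosome 11. *Psmb8* (chr17:34197721-34201454) and *Psmb9* (chr17:34181987-34187764) sit in the MHC region of chromosome 17, on either side of *Tap1* (chr17:34187553-34197225), which encodes a chain of the peptide transporter (GRCm38, GENCODE M21). RefSeq gives a promoter window in the same build for 41 of the 49 members, as 44 windows of 250 bases before a gene start, since some genes have more than 1 start. No window is listed for *Psma8*, *Psmb1*, *Psmb2*, *Psmb7*, *Psmc3*, *Psmd3*, *Psmd7* and *Psmg2*. The windows of the 3 immunoproteasome genes, of *Psmb5*, a standard subunit whose window holds a motif match, and of the members called lower are printed 5′ to 3′, because the comparisons below rest on these genes. Capitals mark a match to a motif, searched on both strands. The windows of *Psmb8* and *Psmb9* lie inside the longer GENCODE models of these genes. Most of the *Psmd1* window also lies inside its model, which starts at chr1:86064387, and those of *Psmb5* and *Psmb10* overlap theirs in part.
*Psmb5* (chr14:54617996-54618245, reverse strand): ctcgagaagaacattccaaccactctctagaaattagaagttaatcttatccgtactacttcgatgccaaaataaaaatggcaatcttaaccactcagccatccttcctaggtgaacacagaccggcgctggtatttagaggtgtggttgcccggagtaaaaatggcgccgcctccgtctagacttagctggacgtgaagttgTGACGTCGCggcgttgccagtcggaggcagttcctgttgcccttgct
*Psmb8* (chr17:34197945-34198194, forward strand): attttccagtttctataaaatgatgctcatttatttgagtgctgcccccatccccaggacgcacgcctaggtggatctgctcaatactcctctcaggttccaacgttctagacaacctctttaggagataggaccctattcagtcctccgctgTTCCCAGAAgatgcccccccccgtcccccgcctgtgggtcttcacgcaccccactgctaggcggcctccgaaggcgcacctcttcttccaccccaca
*Psmb9* (chr17:34187331-34187580, reverse strand): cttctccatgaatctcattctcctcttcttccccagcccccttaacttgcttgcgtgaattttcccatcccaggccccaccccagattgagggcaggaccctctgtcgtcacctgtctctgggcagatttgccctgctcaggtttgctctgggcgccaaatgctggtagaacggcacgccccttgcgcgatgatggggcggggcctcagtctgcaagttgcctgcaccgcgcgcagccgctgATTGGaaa
*Psmb10* (chr8:105938393-105938642, reverse strand): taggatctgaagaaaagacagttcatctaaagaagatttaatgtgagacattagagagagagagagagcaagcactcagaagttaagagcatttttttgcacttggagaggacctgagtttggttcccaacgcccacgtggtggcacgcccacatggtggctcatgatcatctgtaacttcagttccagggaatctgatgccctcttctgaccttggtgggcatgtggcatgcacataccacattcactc
*Psmd1* (chr1:86064369-86064618, forward strand): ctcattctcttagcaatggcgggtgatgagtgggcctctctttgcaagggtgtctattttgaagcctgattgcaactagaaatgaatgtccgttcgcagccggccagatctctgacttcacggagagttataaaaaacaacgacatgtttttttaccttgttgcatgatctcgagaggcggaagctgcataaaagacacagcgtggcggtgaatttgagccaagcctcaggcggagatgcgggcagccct
*Psme3* (chr11:101315963-101316212, forward strand): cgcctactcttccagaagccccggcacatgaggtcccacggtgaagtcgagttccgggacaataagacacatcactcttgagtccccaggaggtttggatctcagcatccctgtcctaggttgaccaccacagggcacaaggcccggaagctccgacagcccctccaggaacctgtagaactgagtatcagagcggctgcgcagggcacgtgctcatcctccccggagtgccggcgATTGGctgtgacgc

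The capitals in *Psmb5* match TGACNNNGC, the core of the antioxidant response element, which the proteasome regulator NRF1 (*Nfe2l1*) is known to bind. This core was in 5 of the 44 windows, those of *Psmb5*, *Psmb6*, *Psmc6*, *Psmd12* and *Psmd9*. This is 11.4% of the members' windows, against 10.2% of all 32851 windows. In *Psmb9* and *Psme3* the capitals are a CCAAT box on the opposite strand, a motif in 31.8% of the members' windows and in 33.8% of all windows. In *Psmb8* they match TTCNNNGAA, the letters of the gamma-activated site, which 4.55% of the members' windows and 7.02% of all windows hold. The interferon-stimulated response element was found for *Psmb3*, *Psmd4* and *Psmd9* (6.82% of the members' windows and 2.98% of all). The windows of *Psmb10* and *Psmd1* hold none of these 4 motifs. No printed window has 2 matches, and a match is a description of letters, not of binding.

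Levels were compared between genes per kilobase of the transcript with the longest coding sequence. In controls *Psmb6* was the highest, at 289 ± 29.6 CPM per kilobase (mean ± SD, n = 4), and it is followed by *Psmb2* (229.9 ± 35.3), *Psma7* (185 ± 20.2) and *Psma1* (157 ± 21.5). Neighbours in this order did not differ beyond their SDs. *Psme4* (2.57 ± 0.583) and *Psma8* (1.86 ± 1.09) were the lowest of the proteasome genes. Among the exchangeable catalytic subunits the control levels per kilobase were 100.3 ± 14.5 for *Psmb5* and 85.9 ± 17.3 for its replacement *Psmb8*, 289 ± 29.6 for *Psmb6* and 48.2 ± 10.8 for *Psmb9*, and 34.1 ± 5.17 for *Psmb7* and 86.3 ± 11.1 for *Psmb10*. *Psmb8* and *Psmb10* did not differ beyond their SDs. *Psmb9* was below *Psmb6*, and *Psmb10* was above *Psmb7*, by more than the SDs. Ordering the 49 genes by the length of all their exons instead gave a similar order (Spearman's rho 0.92 across genes, which are not replicates). The top places changed, however. By that length *Psmb2* (164) and *Psma6* (126) lay above *Psmb6* (123), and *Psma7* moved from 185 to 55.1 CPM per kilobase. *Psmb8* was then at 41.4, *Psmb5* at 100.3 and *Psmb10* at 66.4. *Psmb9* (17.8) stayed below *Psmb6*, and *Psmb10* above *Psmb7* (11.6).

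The first comparison asked which members differ between mutant and control microglia. No member was called higher, where 4.36% of all tested genes were, and 2 of 49 (4.08%) were called lower, where 7.97% of all tested genes were (12.3% in either direction). Those called lower were *Psmd1* and *Psme3*. The median log2 fold change was -0.0085 over the members and 0.011 over all tested genes. For 43 members (87.8%) the 95% interval of the log2 fold change lay between −1 and 1, which held for 26.6% of all tested genes. The exceptions were *Psma8*, *Psmc3ip*, *Psmg3*, *Psmg4*, *Psmd1* and *Psmd3*. The 2 shares were not compared at a like level of expression. The median level was 85.2 CPM over the members and 9.67 CPM over all tested genes. Median half-widths of the interval were 0.37 and 0.83. At an unadjusted p under 0.05 there were 8 members, or 16.3%, against 28.7% of all tested genes. DESeq2 called 0 members higher (8.97% of all genes it tested) and 5 lower (11.5%), namely *Psmd1*, *Psmd2*, *Psmd3*, *Psmd6* and *Psme3*. Levels did not overlap between the groups for 7 members that were lower in mutants, where this held for 13% of all tested genes, and for 0 that were higher, where it held for 9.04%. Together the members made up 0.437 to 0.517% of the counts of a control library and 0.438 to 0.557% of those of a mutant library. The calls of *Psmd1* and *Psme3* did not survive the removal of every single mouse, as given beside their values below.

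**Figure D1:**
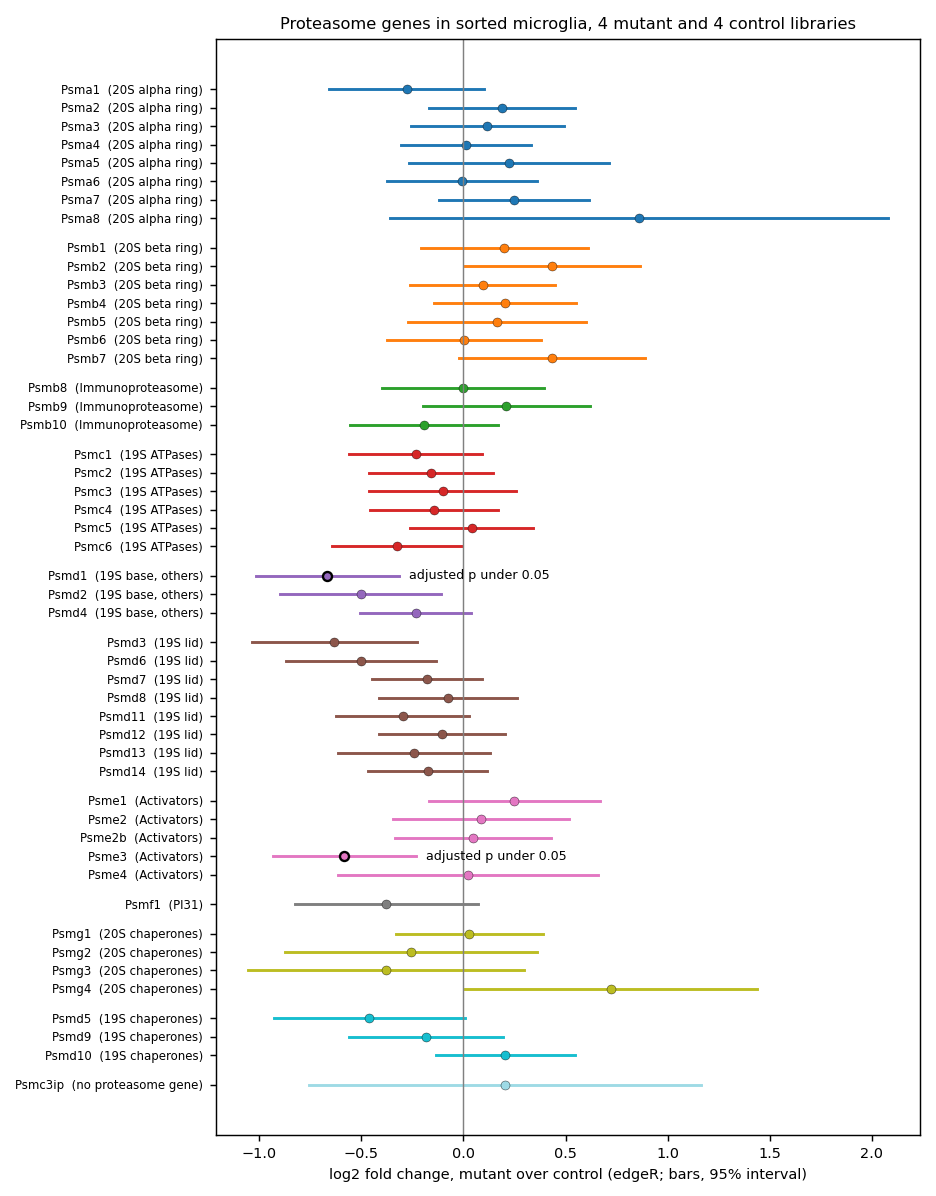
Log2 fold change of each member, mutant over control (points), with its 95% interval (bars), by role in the proteasome, from edgeR's fit of 4 mutant and 4 control libraries. Points with a thick outline, *Psmd1* and *Psme3*, have an adjusted p under 0.05, and 16 of the 17 members of the 19S particle lie left of 0.

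In the alpha ring of the core, 0 of 8 genes were called, and the log2 fold changes ranged from -0.28 for *Psma1* to 0.86 for *Psma8*. The value of *Psma8* had an SE of 0.54 and came from 3.15 ± 1.85 CPM in controls and 5.73 ± 3.07 CPM in mutants (mean ± SD, n = 4). *Psma7* had the highest level of the alpha genes per kilobase of the transcript with the longest coding sequence, though not per kilobase of all exons. Its log2 fold change was 0.25 (SE 0.16, adjusted p = 0.358) by edgeR's test. In the standard beta ring 0 of 7 genes were called, and all 7 log2 fold changes were above 0 (4 of 7 with a trend with transcript length taken out of each library), from 0.0023 for *Psmb6* to 0.43 for *Psmb2* (adjusted p = 0.168 by edgeR's test).

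*Psmb5*, which encodes the chymotrypsin-like subunit, was at 86.4, 84.2, 80.7 and 109 CPM in the 4 control libraries and 80.97, 135, 87.1 and 102 CPM in the 4 mutant libraries. Mutant 2 was the highest of all 8, the other libraries of both groups overlapped, and the log2 fold change was 0.16 (SE 0.19, adjusted p = 0.632) by edgeR's test. *Psmb6*, which encodes the caspase-like subunit, was at 216, 207, 240.2 and 259 CPM in the 4 control libraries and 183, 279, 212 and 249.8 CPM in the 4 mutant libraries. The mutants held both the lowest and the highest library, and the log2 fold change was 0.0023 with a 95% interval of -0.38 to 0.38. *Psmb7*, which encodes the trypsin-like subunit, was at 35.1, 36.8, 38.1 and 48.4 CPM in the 4 control libraries and 37.9, 53.8, 54.3 and 67.8 CPM in the 4 mutant libraries. Mutants 2 to 4 lay above all controls and mutant 1 among them, and the log2 fold change was 0.43 (SE 0.20, adjusted p = 0.195) by edgeR's test. 28.1% of the 50-base words of *Psmb7* also occur in other genes, most in *Nek6*, which overlaps it, so its reads are partly uncertain. *Psmb5* shares 54.1% of such words with other genes, most with the gene model *Gm3375*.

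The immunoproteasome subunits showed no call, with log2 fold changes on both sides of 0. *Psmb8* was at 108, 125, 165 and 162 CPM in the 4 control libraries and 119, 142, 148 and 150.0 CPM in the 4 mutant libraries. All 4 mutants lay within the range of the controls, and the means were 139.9 ± 28.2 CPM in controls and 139.8 ± 14.4 CPM in mutants (mean ± SD, n = 4). Its log2 fold change was -4.88e-04 (95% interval -0.40 to 0.40). *Psmb9* was at 51.4, 55.7, 70.1 and 83.5 CPM in the 4 control libraries and 73.99, 70.7, 85.8 and 70.9 CPM in the 4 mutant libraries. The mutants lay in the upper part of the control range with mutant 3 above it, and the log2 fold change was 0.21 (SE 0.18, adjusted p = 0.498) by edgeR's test. *Psmb10* was at 97.6, 105, 120.2 and 129.8 CPM in the 4 control libraries and 78.2, 106, 104 and 107 CPM in the 4 mutant libraries. Mutant 1 was the lowest of the 8 libraries, the other 3 mutants lay among the controls, and the log2 fold change was -0.19 (SE 0.16, adjusted p = 0.475) by edgeR's test. The 95% intervals of *Psmb9* and *Psmb10* ran from -0.20 to 0.62 and from -0.56 to 0.17. Exons of *Psmb8* and *Psmb9* overlap those of *Gm20496* and *Tap1* (14.7% and 5.79% of exon bases), and reads of overlapping genes cannot be separated without strand.

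**Figure D2:**
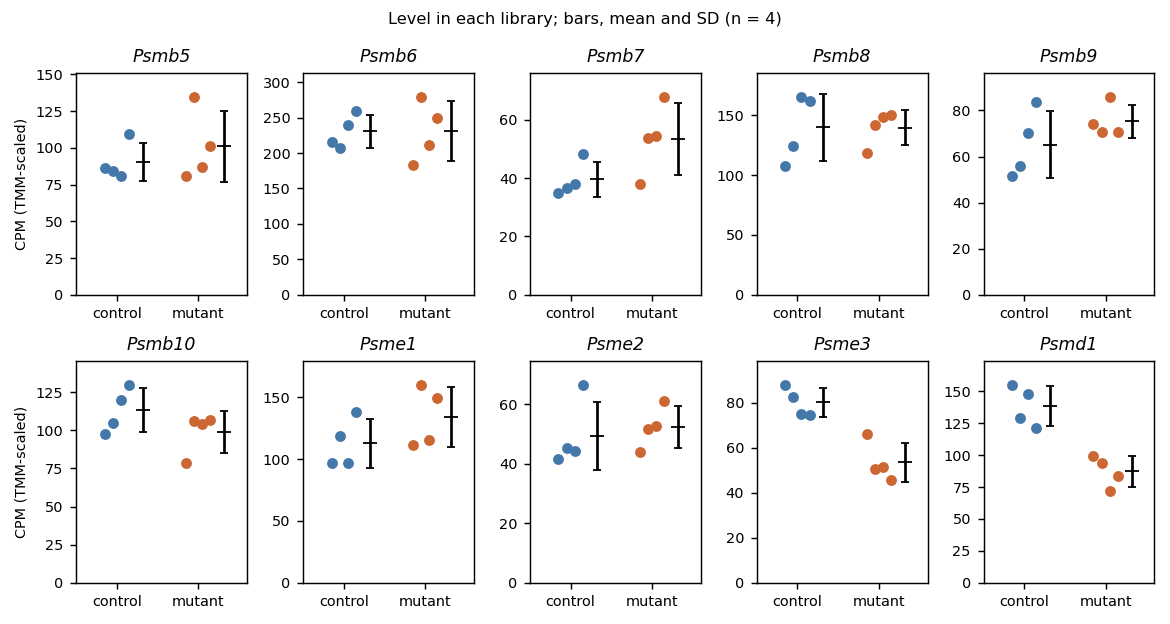
Level (CPM, TMM-scaled) of 10 members in each control (blue) and mutant (orange) library, with the mean and SD of each group (n = 4) beside the points. The groups do not overlap for *Psme3* and *Psmd1*, and overlap for the catalytic and immunoproteasome subunits and for *Psme1* and *Psme2*.

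To compare the exchangeable subunits free of the scaling between libraries, the log2 ratio of each immunoproteasome subunit to the standard subunit it replaces was taken within each library. The ratio of *Psmb8* to *Psmb5* was 0.32, 0.57, 1.03 and 0.56 in controls and 0.55, 0.079, 0.77 and 0.56 in mutants on the log2 scale, and the difference of the means was -0.13 (two-sided exact permutation p = 0.429). The groups overlapped. For *Psmb9* to *Psmb6* it was -2.07, -1.89, -1.78 and -1.63 in controls and -1.31, -1.98, -1.30 and -1.82 in mutants, with a difference of 0.24 (exact permutation p = 0.286). Mutants 1 and 3 lay above all controls and mutants 2 and 4 among them. For *Psmb10* to *Psmb7* it was 1.48, 1.51, 1.66 and 1.42 in controls and 1.05, 0.98, 0.94 and 0.66 in mutants. Every mutant lay below every control, and the mean fell from 1.52 ± 0.10 to 0.91 ± 0.17 (SD, n = 4). The difference of -0.61 had an exact permutation p of 0.0286, the smallest that 4 against 4 libraries allow, and an adjusted p of 0.0857 over the 3 ratios, which does not pass 0.05. The 2 genes of this ratio did not pass the test singly, *Psmb10* lying lower and *Psmb7* higher in mutants, and the part of *Nek6* reads counted on *Psmb7* was not tested.

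**Figure D3:**
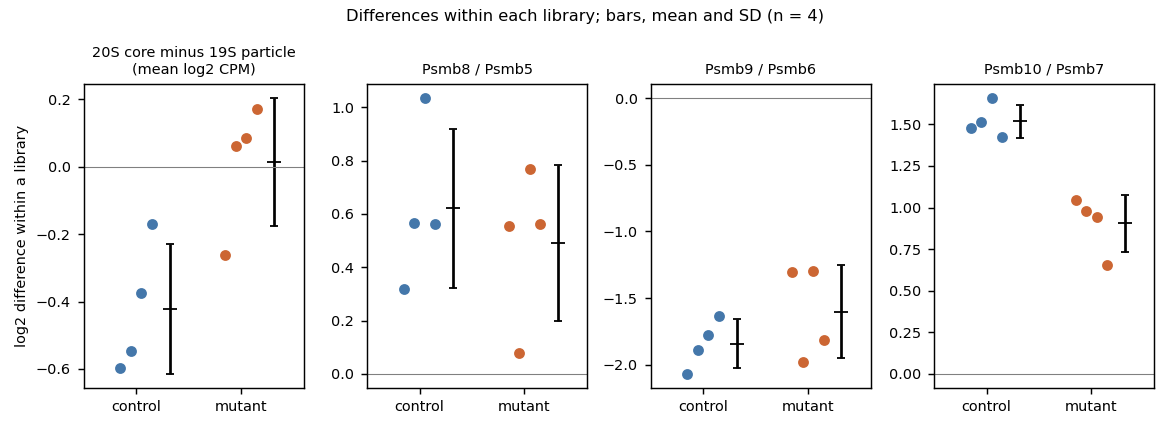
Differences within each library on the log2 scale for controls (blue) and mutants (orange), with the mean and SD (n = 4): the mean of the 20S core genes minus that of the 19S genes, and the 3 ratios of immunoproteasome to standard subunits. The mutants lie below all controls for *Psmb10* to *Psmb7* only, and 3 of 4 mutants lie above all controls in the 20S minus 19S panel.

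The 19S particle held 1 of the calls. Of its 17 members by the symbol rule 16 had a log2 fold change below 0, 1 was called lower and 0 were called higher. With the trend with transcript length taken out of each library, 3 of the 17 were above 0. Of these 17, 6 did not overlap between the groups, all lower in mutants (35.3%, against 13% of all tested genes). The median level was 113 CPM over the 17 and 9.67 CPM over all tested genes, so these shares are not a like comparison. *Sem1* and *Adrm1* also encode 19S subunits but fall outside the rule and are on the associated list below. *Sem1* had a log2 fold change of 0.78 (SE 0.25, adjusted p = 0.0743 by edgeR's test and 0.0219 by DESeq2). That of *Adrm1* was -0.31 (SE 0.13, adjusted p = 0.162 by edgeR's test). *Psmd1*, which encodes RPN2, the largest scaffold of the base, was at 155, 129, 148 and 121 CPM in the 4 control libraries and 99.1, 94.1, 72.3 and 83.3 CPM in the 4 mutant libraries. Every mutant was below every control, with means of 138 ± 15.8 CPM in controls and 87.2 ± 11.9 CPM in mutants (mean ± SD, n = 4). The log2 fold change was -0.67 (SE 0.15, adjusted p = 0.0235) by edgeR's test with Benjamini-Hochberg adjustment. Without control 1, 2 or 3 or mutant 3 or 4 the adjusted p rose to at most 0.0604, and with any mouse left out the log2 fold change stayed between -0.73 and -0.59. Scaling by library totals gave an adjusted p of 0.0670 for *Psmd1* and 0.109 for *Psme3* by edgeR's test. 4.14% of its exon bases overlap *Gm21972*.

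The other 2 members of the base without ATPase activity are *Psmd2* (RPN1, the second scaffold of the base) and *Psmd4* (RPN10, a receptor for ubiquitin). They had log2 fold changes of -0.50 (SE 0.17, adjusted p = 0.0946) and -0.23 (SE 0.12, adjusted p = 0.235) by edgeR's test, and *Psmd4* did not overlap between the groups, at 153 to 164 CPM in controls and 124 to 145 CPM in mutants. Of the 8 members in the lid 0 were called. All 8 values were below 0, from -0.63 for *Psmd3* to -0.076 for *Psmd8*, the lid member with the highest level per kilobase. With the trend with transcript length taken out, 2 of the 8 were above 0. *Psmd3* (RPN3) was just outside the threshold at an adjusted p of 0.0503 by edgeR's test. It was at 137, 150.3, 182 and 165 CPM in the 4 control libraries and 110.1, 105, 119.8 and 74.4 CPM in the 4 mutant libraries, with no overlap between the groups. The other lid genes without overlap were *Psmd6*, *Psmd7* and *Psmd11*. *Psmd14*, which encodes the deubiquitinase of the lid, had a log2 fold change of -0.18 (SE 0.13, adjusted p = 0.419) by edgeR's test. Among the 6 ATPases of the base none was called, and the values ran from -0.33 for *Psmc6* to 0.041 for *Psmc5*, the highest of them per kilobase.

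Of the 5 activator genes 1 was called lower. *Psme3*, which encodes the nuclear activator PA28 gamma, was at 87.97, 82.8, 75.2 and 74.8 CPM in the 4 control libraries and 66.2, 50.5, 51.4 and 45.9 CPM in the 4 mutant libraries. Every mutant was below every control, with means of 80.2 ± 6.37 CPM in controls and 53.5 ± 8.82 CPM in mutants (mean ± SD, n = 4). The log2 fold change was -0.58 (SE 0.16, adjusted p = 0.0401) by edgeR's test with Benjamini-Hochberg adjustment. It lost its call when any 1 of the 8 mice other than mutant 1 was left out, with an adjusted p of up to 0.107 and a log2 fold change between -0.70 and -0.52. *Psme1*, an interferon-inducible chain of the cytoplasmic PA28, was at 97.2, 119, 97.3 and 138 CPM in the 4 control libraries and 111, 160.1, 115 and 149.8 CPM in the 4 mutant libraries. The groups overlapped, with mutants 2 and 4 above all controls, and the log2 fold change was 0.25 (SE 0.18, adjusted p = 0.421) by edgeR's test. *Psme2*, the other chain, was at 41.4, 45.3, 44.2 and 66.5 CPM in the 4 control libraries and 44.02, 51.6, 52.6 and 61.01 CPM in the 4 mutant libraries. Control 4 was the highest library and the mutants lay within the range of the controls, with a log2 fold change of 0.085 (95% interval -0.35 to 0.52). 54.9% of the 50-base words of *Psme2* recur elsewhere, most in its near-identical copy *Psme2b*, so how reads were split between both is uncertain. The log2 fold changes of *Psme2b* and *Psme4* were 0.048 and 0.022, and neither was called.

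No assembly chaperone was called. For the core the values ran from -0.38 for *Psmg3* to 0.72 for *Psmg4*, which was at 11.5 ± 4.35 CPM in controls and 18.9 ± 4.78 CPM in mutants (adjusted p = 0.171 by edgeR's test). For the base they ran from -0.46 for *Psmd5* to 0.20 for the X-linked *Psmd10*. *Psmf1*, which encodes the regulator PI31, had a log2 fold change of -0.38 (SE 0.20, adjusted p = 0.248) by edgeR's test. *Psmc3ip* was not called either, at 4.63 ± 1.23 CPM in controls and 5.33 ± 3.11 CPM in mutants (mean ± SD, n = 4).

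The medians of the core and of the 19S particle lay on different sides of 0. Over the 18 core genes the median log2 fold change was 0.18, with 14 above 0 (10 with the trend with transcript length taken out). It was -0.23 over the 17 members of the 19S particle. This contrast was taken up after the values had been seen, so it is given without a test. The mean log2 CPM of the core genes minus that of the 19S genes was -0.60, -0.55, -0.37 and -0.17 in the controls and -0.26, 0.061, 0.086 and 0.17 in the mutants. The groups overlapped, since mutant 1 lay below control 4, and their means differed by 0.44. The mean log2 CPM of the 19S genes was 6.89 ± 0.040 in controls and 6.62 ± 0.048 in mutants (SD, n = 4), and that of the core genes 6.47 ± 0.21 and 6.63 ± 0.17. The neuron markers, whose summed level was 361, 123, 54.5 and 33.5 CPM in the controls and 334, 159, 102 and 103 CPM in the mutants, were highest in the library of each group with the lowest core minus 19S value. The same libraries were highest in oligodendrocyte markers, which summed to 4514, 1679, 1047 and 717 CPM in the controls and 3817, 2140.4, 1175 and 1256 CPM in the mutants. Within the controls the order of the core minus 19S values was the reverse of the order of both marker sums, and the part of neural RNA in this contrast was not tested.

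Transcript length moved with the same contrast. The median transcript length was 1192 bases for the core genes and 1785 bases for the 19S genes. Over the 4811 protein-coding genes of at least 5 log2 CPM the median log2 fold change was 0.60 for transcripts of up to 1000 bases, -0.0081 from there to 2000, -0.30 to 3000, -0.38 to 4000 and -0.37 above 4000. The medians thus went from higher in mutants for the shortest class to lower for the classes over 2000 bases, and Spearman's rho between length and log2 fold change was -0.36 over them and -0.49 over the 49 members. Genes are not independent replicates, and all share the same 8 libraries. The length of *Psme3* falls in a class in which 21.2% of these genes were called lower, and that of *Psmd1* in a class with 23.8%. With the length trend taken out of each library by an offset, 0 members were called in either direction, where 5.72% of all tested genes were called higher and 5.58% lower. *Psmd1* then had a log2 fold change of -0.29 (adjusted p = 0.249 by edgeR's test) and *Psme3* one of -0.27 (adjusted p = 0.235). The median became 0.028 for the core and -0.13 for the 19S genes, against 0.17 for all tested genes.

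**Figure D4:**
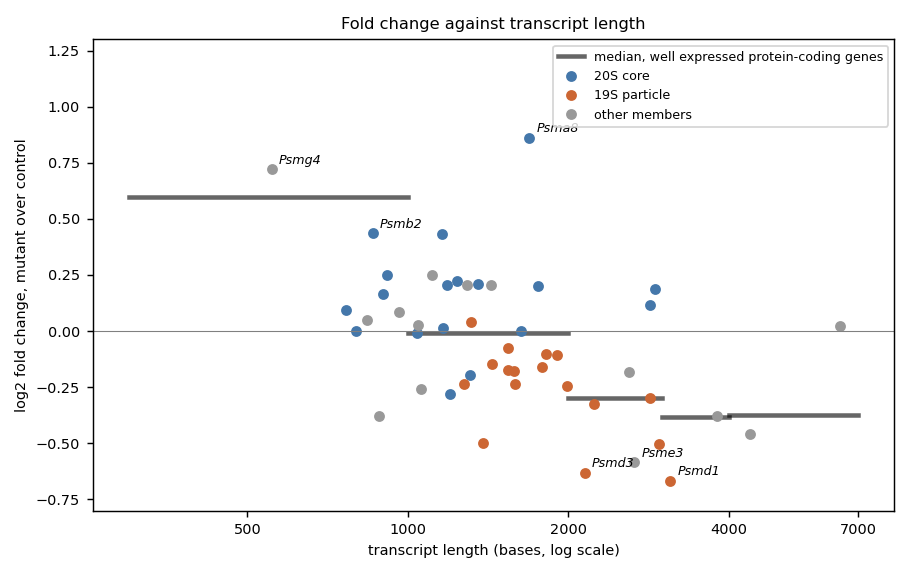
Log2 fold change of each member, mutant over control, against the length of its transcript in bases (log scale), for core genes (blue), 19S genes (orange) and the other members (grey). Horizontal bars give the median of the 4811 well expressed protein-coding genes in 5 classes of length, the last class being open, and go from above 0 for the shortest to below 0 for the longest transcripts.

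The other genes of the pathway were taken from a list of 40 that act on ubiquitin, proteasome assembly or proteasome gene control, of which 38 were tested and *Nfe2l3* and *Paaf1* were below the count minimum. Of these 0 were called higher and 3 were called lower (7.89%, near the 7.97% of all tested genes), and the median log2 fold change was -0.18. *Akirin2*, whose product carries proteasomes into the nucleus, was at 74.3, 71.7, 76.6 and 76.01 CPM in the 4 control libraries and 40.4, 33.1, 38.9 and 40.7 CPM in the 4 mutant libraries. The groups did not overlap, and the log2 fold change was -0.96 (SE 0.13, adjusted p = 0.00176) by edgeR's test. *Mafg*, which encodes a small MAF partner of the NRF factors, was lower as well, with a log2 fold change of -0.93 (SE 0.18, adjusted p = 0.0101) by edgeR's test, and this call was lost with length offsets (adjusted p = 0.0773). *Pomp*, which encodes the chaperone that completes the beta ring, was at 178 ± 22.7 CPM in controls and 169 ± 34.9 CPM in mutants (mean ± SD, n = 4), with a log2 fold change of -0.076 (95% interval -0.48 to 0.33). *Nfe2l1*, which encodes NRF1, the factor that raises proteasome genes when proteasomes fall short, was at 62.1 ± 9.88 CPM in controls and 58.4 ± 14.9 CPM in mutants (mean ± SD, n = 4), with a log2 fold change of -0.089 (95% interval -0.57 to 0.39).

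A further list held 22 genes of MHC class I antigen presentation and interferon signalling, which use or are induced with the immunoproteasome. Here 3 genes were called higher (13.6%, against 4.36% of all tested genes) and 4 lower (18.2%, against 7.97%). The list was chosen with earlier results of these data known. Its median level was 141 CPM, against 9.67 CPM for all tested genes, so the shares are not a like comparison. Those called higher were the class I heavy chains *H2-D1* and *H2-K1* and the interferon receptor gene *Ifnar2*. *H2-D1* was at 738, 1009, 854 and 684 CPM in the 4 control libraries and 1909.8, 1722, 2250.3 and 1296 CPM in the 4 mutant libraries. Every mutant was above every control, and the log2 fold change was 1.13 (SE 0.21, adjusted p = 0.00864) by edgeR's test. *H2-K1* was at 453, 587, 613 and 507 CPM in the 4 control libraries and 988, 989, 1396 and 745 CPM in the 4 mutant libraries. Again the groups did not overlap, and the log2 fold change was 0.93 (SE 0.21, adjusted p = 0.0210) by edgeR's test. That of *Ifnar2* was 0.93 (SE 0.17, adjusted p = 0.00766). The genes called lower were *Irf8*, a transcription factor of myeloid cells, with a log2 fold change of -1.42 (SE 0.20, adjusted p = 0.00184) by edgeR's test, the interferon gamma receptor gene *Ifngr1*, and the chaperone genes *Calr* and *Canx*. The log2 fold changes of the last 3 were -0.97 (SE 0.22, adjusted p = 0.0207), -0.72 (SE 0.19, adjusted p = 0.0357) and -0.52 (SE 0.14, adjusted p = 0.0455) by edgeR's test. With 1 mouse left out, the adjusted p reached at most 0.0636 for *Ifngr1*, 0.0938 for *Calr*, 0.126 for *Canx* and 0.0530 for *H2-K1*. The call of *Ifngr1* was lost without control 2 or mutant 2 or 4, that of *Calr* without any mouse but control 1 or mutant 3, that of *Canx* without any 1 of the 8, and that of *H2-K1* without control 1 or 2. The calls of *Calr* and *Canx* were lost with length offsets (adjusted p = 0.0827 and 0.596 by edgeR's test). *Tap1*, which neighbours *Psmb9*, had a log2 fold change of 0.16 (SE 0.21, adjusted p = 0.666), and *Tap2*, the other chain of the transporter, one of -0.75 (SE 0.24, adjusted p = 0.0743). The light chain gene *B2m* had 0.48 (SE 0.22, adjusted p = 0.182) by edgeR's test. *Irf1*, a transcription factor for immunoproteasome genes, had -0.32 (SE 0.29, adjusted p = 0.513). *Nlrc5*, the class I transactivator, was at 0.233, 3.54, 0.168 and 0.645 CPM in the 4 control libraries and 7.92, 4.21, 4.62 and 1.46 CPM in the 4 mutant libraries, and its log2 fold change of 1.99 (SE 0.97, adjusted p = 0.215) was not called. Without control 2 it was 3.69 (adjusted p = 0.0282 by edgeR's test). The T and NK cell, macrophage and microglia markers given above differed between the same groups, and their part in the class I values was not tested.

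**Figure D5:**
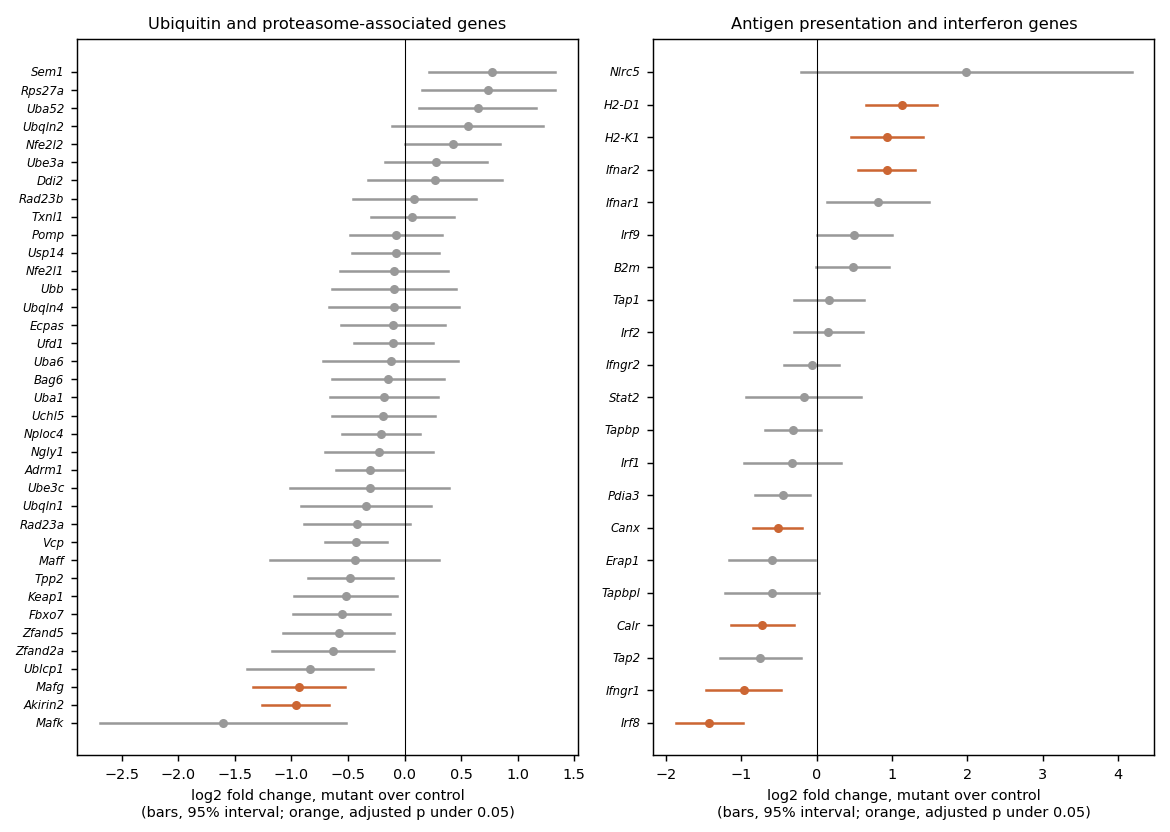
Log2 fold change, mutant over control, with its 95% interval for the genes associated with ubiquitin and the proteasome (left) and those of antigen presentation and interferon signalling (right), without the genes not reported singly. Orange marks an adjusted p under 0.05, which 2 genes shown on the left, both lower in mutants, and 7 on the right, 3 higher and 4 lower, reached.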

How the data were processed

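Per the labels and the Methods, the authors sorted microglia, sequenced 1 library per mouse, aligned reads to mm10 with Rsubread and deposited raw counts per gene from featureCounts, without normalization. The annotation is not given in the sources used here. The Methods describe polyA-selected libraries of paired reads and the labels Nextera XT libraries of single reads, and the Methods name another deposit for these mutants, so the kit is uncertain. The authors' DESeq2 table, which holds log2 fold changes with standard errors, test scores, mean normalized scores and p-values, was not used.

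Genes passing 10 counts in 4 or more of 8 libraries were fitted with edgeR 4.0.16 (R 4.3.3, TMM, glmQLFit, glmQLFTest, no block). The common biological coefficient of variation over all tested genes was 0.542, which does not describe the members singly. Libraries of the same group differed beyond counting noise (chi-square per gene at least 108). SE is the size of the log2 fold change over the square root of F. Ratios used log2 CPM with a prior count of 2 and two-sided exact permutation over 70 splits. Of the listed genes 55480 matched GENCODE M21 (GRCm38). Alternatives were DESeq2 1.42.0, other scaling, other filters, the replicate number as a block and leaving out each mouse. Fits were tested on simulated data. Members and lists were chosen with earlier results of these data known, and the length offsets (lowess of log2 CPM on transcript length in each library) and the 20S minus 19S contrast after seeing the data. Values in every library are given for the catalytic and immunoproteasome subunits, *Psme1*, *Psme2* and called members, and *Psmd3* was added after its values were seen. Of the 2 other lists the called genes and *Pomp*, *Nfe2l1*, *Tap1*, *Tap2*, *B2m*, *Irf1*, *Irf8* and *Nlrc5* are named. *Sem1* and *Adrm1* were added after their values were seen. From these lists 2 genes enter the counts but are not reported singly here. Coordinates are 1-based. Each library comes from a mouse of its own, and p-values measure the spread between these mice.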

Additional observations from a re-analysis of the deposited data

Results flagged for a closer look

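Among 28 groups of 4 libraries examined, 2 held a library far from the other 3, where chance alone gives about 1 in 20. *Psmb10* was at 78.2 CPM in mutant 1 and at 104 to 107 CPM in the other mutants. *Psme2* was at 66.5 CPM in control 4 and at 41.4 to 45.3 CPM in the other controls. The Psmb10 log2 fold change went from -0.19 to -0.10 without mutant 1, and the Psme2 log2 fold change went from 0.085 to 0.31 without control 4. Neither was called in either setting.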

How the results depend on the processing

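No result reversed its direction while called. Library totals without a composition factor moved the median of all tested genes to 0.13 and length offsets moved it to 0.17, and the members' median with library totals was 0.11. Members called lower, with or without the immunoproteasome subunits, numbered 5 with DESeq2, 0 with library totals, 3 with a filter on all 8 libraries (*Psmd3* joined), 1 without a filter (*Psme3* lost its call), 0 with length offsets and 0 to 2 with a mouse left out (0 without control 1, 2 or 3 or mutant 3 or 4, and 1 without control 4 or mutant 2). None was called higher in any of these settings. On the associated list 3 genes were called higher with DESeq2, 1 with a filter on all 8 libraries, 1 with length offsets and 0 to 1 with a mouse left out, and 8 were called lower with DESeq2, 5 with the filter on all 8 libraries and 3 to 4 with a mouse left out. On the antigen presentation list 6 were called higher with length offsets and 2 to 3 with a mouse left out, and 2 were called lower without a filter, 2 with length offsets and 1 to 3 with a mouse left out. Where a count moved, the cause was not tested, except that length offsets by construction take out the trend with length. All genes called numbered 2079 higher and 2659 lower with DESeq2, against 878 and 1607. On simulated data, drawn with edgeR's dispersions, a larger share of DESeq2's calls than of edgeR's was false. There edgeR recovered a smaller share of the changed genes than DESeq2 and missed more than it recovered. The changed genes were drawn from all tested genes, whose median level was below that of the members, so these shares do not describe the members. A member without a call is not shown to be unchanged.

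The ratio of *Psmb10* to *Psmb7* differed by -0.66 to -0.53 with a mouse left out, where the exact permutation p was 0.0571, the smallest that 3 against 4 libraries allow, and by -0.61 with the replicate block (sign-flip permutation p = 0.125, the smallest that 4 pairs allow), so these settings could not pass 0.05. Replicate numbers did not pair the mice by the criterion of a correlation above 0.1 in every pair. Deviations of same-numbered libraries correlated at 0.0183 to 0.166, and 6 of 8 libraries correlated best with their own number. The block gave 2383 calls against 2485, of which 2001 were the same genes, and kept those of *Psmd1* (adjusted p = 0.0402 by edgeR's test) and *Psme3* (0.0410). With it 4 associated genes were called lower against 3, and on the antigen presentation list 4 were called higher against 3 and 3 lower against 4.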
